A study of Mus musculus with 8 samples.

Results

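The NR4A nuclear receptors are the 3 genes Nr4a1, Nr4a2 and Nr4a3, and they were taken by symbol from the 31053 genes of the deposited feature tables. SN4741 is a clonal mouse line derived from embryonic substantia nigra that carries a temperature-sensitive large T antigen driven by the tyrosine hydroxylase promoter, and the labels call its cells neural precursors of WT genotype. Of 8 libraries, 4 were made at the permissive temperature, 37 °C, from cells kept in medium with 10% fetal bovine serum. The other 4 libraries were made at the non-permissive temperature, 39 °C, from cells moved 24 h after passage to medium with 0.5% serum and held there for 48 h. The medium at both temperatures was DMEM with penicillin and streptomycin, and all cells were trypsinized before capture. Temperature, serum and the change of medium moved together, so their parts in any difference cannot be told apart. Being 1 clone, the line gives no information on how other lines behave, and nothing states that the libraries came from separate cultures. The p-values between temperatures therefore measure only the spread between these libraries. Those between classes of cells, fitted with the library as a block, measure only how far the class difference varied over these libraries.

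The NR4A family consists of orphan nuclear receptors whose ligand pocket is closed by bulky side chains, so that their activity is set largely by how much of the protein is made. All members are immediate-early genes, transcribed within minutes of cAMP, calcium, growth factor or stress signals through sites bound by CREB, MEF2 and SRF. They bind as monomers to the NBRE, an extended nuclear receptor site. Nr4a1 encodes Nur77, the member most widely induced by mitogens and stress. Nr4a2 encodes Nurr1, which midbrain dopaminergic neurons need for their formation and upkeep and which regulates Th and Slc6a3. Nr4a3 encodes Nor1, which overlaps with Nur77 in function and does not pair with retinoid X receptors.

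In GENCODE M21 on GRCm38, the build the files use as mm10, Nr4a1 (ENSMUSG00000023034) lies on chromosome 15 at 101254269 to 101274795 on the plus strand. Nr4a2 (ENSMUSG00000026826) lies on chromosome 2 at 57106830 to 57124003 on the minus strand, and Nr4a3 (ENSMUSG00000028341) on chromosome 4 at 48045153 to 48086447 on the plus strand. No other annotated gene overlaps any of the 3. RefSeq promoter entries were found for all 3 members. The bases before each RefSeq start are shown because the cAMP input into this family is read through CREB sites, and capitals mark every TGACG, the core of the CREB site, or its reverse complement CGTCA.
Nr4a1 (GRCm38, chr15:101266596-101266845, plus strand): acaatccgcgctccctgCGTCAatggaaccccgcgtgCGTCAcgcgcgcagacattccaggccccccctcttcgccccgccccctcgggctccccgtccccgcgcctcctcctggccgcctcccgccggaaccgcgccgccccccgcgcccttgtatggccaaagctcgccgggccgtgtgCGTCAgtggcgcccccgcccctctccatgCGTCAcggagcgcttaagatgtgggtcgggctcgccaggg
Nr4a2 (GRCm38, chr2:57124004-57124253, minus strand): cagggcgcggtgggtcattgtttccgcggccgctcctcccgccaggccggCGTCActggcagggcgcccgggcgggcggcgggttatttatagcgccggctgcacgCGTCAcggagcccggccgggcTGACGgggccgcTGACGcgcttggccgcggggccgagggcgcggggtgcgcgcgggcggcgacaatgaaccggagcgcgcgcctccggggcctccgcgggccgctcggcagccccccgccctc
Nr4a3 (GRCm38, chr4:48045055-48045152, plus strand): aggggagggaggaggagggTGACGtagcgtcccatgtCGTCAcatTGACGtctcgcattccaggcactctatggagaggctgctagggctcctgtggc
The Nr4a1 bases lie in an intron of a transcript that starts further upstream, the Nr4a2 bases lie upstream of every annotated transcript, and the Nr4a3 run is cut at 98 bases where an annotated exon begins.

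Within the 250 bases before its start, each member held 4 matches to TGACG on either strand. Of 32851 mouse promoters of the same length, 17.8% held at least 1 match and 45, or 0.137%, held at least 4. The count for Nr4a3 includes a match 147 to 143 bases before the RefSeq start. It lies beyond the printed run, within the annotated gene. G and C made up 74.4% of the window of Nr4a1, 80% of that of Nr4a2 and 63.6% of that of Nr4a3. The promoters were not matched for this share, and its part in the matches was not tested. Of 32 other immediate-early genes with an entry, 18 held a match and none held 4. A full CREB site, TGACGTCA, whose letters also count as TGACG on each strand, was found in 1.55% of promoters and in no member's window. The NBRE letters AAAGGTCA (1.34% of promoters), the EGR letters GCGTGGGCG (0.536%) and the CArG box bound by SRF (1.47%) were also absent from the 3 windows, with both strands searched. A match describes letters and not a bound site.

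Unique molecular identifiers (UMIs), which count captured transcript molecules, were added up per library after cells had been filtered. The study's limits on mitochondrial share and gene number left 8550 of 8995 cells at 37 °C and 9801 of 10130 at 39 °C, with 17166686 to 29633818 UMIs per library. Median UMIs per kept cell ran from 9839 to 15413 at 37 °C and from 6676 to 16665 at 39 °C, with replicate 4 at 39 °C the shallowest. Libraries shared at most 5 cell barcodes. Of the lists for cell types, 7 of 14 neural progenitor, 9 of 14 pan-neuronal, 15 of 16 mesenchymal, 6 of 12 glial and 7 of 10 microglial genes reached a mean of 1 UMI per library. The progenitor list was split. Sox1, Sox3, Pax6 and Hes5 had at most 3 UMIs each in all libraries, while Sox2, a core progenitor factor, averaged 55.4 CPM at 37 °C against 76.5 at 39 °C and Nes 467.2 against 108.4, and Vim, Notch1 and Hes1 were abundant. Summed levels, in counts per 1000000 UMIs (CPM), ran from 3368 to 3578 at 37 °C and 1651 to 1828 at 39 °C for the mesenchymal list, and from 63.1 to 67.8 and 73.2 to 82.1 for the microglial list. The neural progenitor list ran from 6106 to 6438 and 5849 to 6405, the pan-neuronal list from 289.3 to 327.6 and 183.9 to 207.1, and the glial list from 18.2 to 24.99 and 19.7 to 22.6, and the part of such cells in the results was not tested. Most of the neural progenitor sum was Vim, which averaged 5396 CPM at 37 °C and 5166 at 39 °C. In summed cells, fewer expressing cells and less RNA per cell cannot be told apart, and for that reason shares of cells are given as well.

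At 39 °C Nr4a1 rose, while Nr4a2 and Nr4a3 did not pass the test. Nr4a1, the Nur77 gene, stood at 16.7, 13.0, 15.9 and 11.1 CPM in replicates 1 to 4 at 37 °C and at 30.6, 27.7, 28.9 and 40.9 CPM at 39 °C. All 4 libraries at 39 °C were above all 4 at 37 °C, and replicate 4 at 39 °C was the highest. The means were 14.2 ± 2.56 and 32.0 ± 6.03 CPM (SD, n = 4 each). The log2 fold change was 1.18 with a standard error (SE) of 0.12, and the adjusted p by edgeR's quasi-likelihood test was 4.33e-08. Without replicate 4 at 39 °C the log2 fold change was the lowest of any left-out library, 1.02.

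Nr4a2, the Nurr1 gene, stood at 3.36, 3.99, 3.68 and 3.83 CPM at 37 °C and at 4.48, 4.24, 3.505 and 5.47 CPM at 39 °C. Replicates 1, 2 and 4 at 39 °C were above every library at 37 °C, and replicate 3 at 39 °C fell among them. The log2 fold change was 0.25 (SE 0.12) with an edgeR adjusted p of 0.0913, which became 0.0152 with a log2 fold change of 0.36 when that replicate was left out. That was the highest log2 fold change of any left-out library, and the lowest was 0.11. Nr4a3, the Nor1 gene, was close to the limit of detection, with 63 UMIs in all cells at 37 °C and 81 at 39 °C. Its levels were 0.617, 0.349, 0.841 and 0.421 CPM at 37 °C and 0.681, 0.757, 0.814 and 1.00 CPM at 39 °C. Replicate 3 at 37 °C overlapped the libraries at 39 °C, and the log2 fold change of 0.55 (SE 0.27) had an adjusted p of 0.0869. Leaving out that library gave a log2 fold change of 0.80 with an edgeR adjusted p of 0.0197. For Nr4a3 too this was the highest of any left-out library, and the lowest was 0.39.

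Thus 1 of 3 members passed at an adjusted p of 0.05, where 62.0% of the 15810 genes tested passed in either direction and 31.5% passed as higher and 30.5% as lower at 39 °C. Nr4a1 was also the only member whose temperatures did not overlap, as was the case for 56.7% of genes. No member reached the study's limits of an adjusted p of 0.01 and a log2 fold change of 1.5 in size, which 5.83% of genes did. A rise was thus common among all genes. On the log2 scale Fos rose by 1.28 (SE 0.14) and Egr1 by 0.62 (SE 0.07), so the rise of Nr4a1 lay between those of these immediate-early genes.

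**Figure D1:**
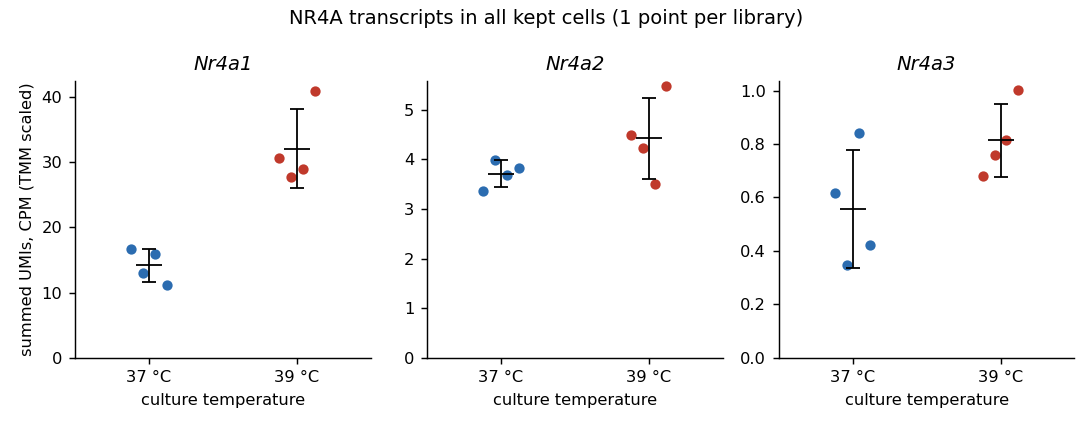
Level of each NR4A gene in all kept cells, in CPM scaled by TMM (vertical axis, starting at 0 and different for each gene), at 37 °C (blue) and 39 °C (red). Points are libraries and black bars the mean ± SD of 4: Nr4a1 does not overlap between temperatures (11.1 to 16.7 against 27.7 to 40.9 CPM), while Nr4a2 and Nr4a3 do.

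By amount, Nr4a1 was the leading member at both temperatures. It made up 76.9% of all NR4A UMIs at 37 °C and 86.0% at 39 °C, and its UMIs exceeded those of Nr4a2 3.84-fold and 7.29-fold. Nr4a1 UMIs were found in 1090 of 8550 cells (12.7%) at 37 °C and in 1934 of 9801 (19.7%) at 39 °C. Cells with at least 3 Nr4a1 UMIs made up 9.27% of the Nr4a1-positive cells at 37 °C and 13.7% at 39 °C, and the highest count in a cell was 21 and 15. Nr4a2 was found in 370 and 361 cells, mostly as a single UMI (333 and 310 cells), and Nr4a3 in 60 and 75 cells with at most 2 UMIs in any.

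Because cells of different depth cannot be compared by the share with a UMI, each cell was thinned to 3000 UMIs, which left out 215 cells at 37 °C and 579 at 39 °C. The share of thinned cells with a Nr4a1 UMI was 4.25%, 4.20%, 4.51% and 3.00% in the libraries at 37 °C and 7.96%, 7.21%, 7.35% and 11.1% at 39 °C. The lowest library at 39 °C was above the highest at 37 °C. The mean share rose from 3.99% ± 0.67 to 8.403% ± 1.82 (SD, n = 4), a difference of 4.41 percentage points (two-sided exact permutation test, p = 0.0286, the smallest that 70 assignments allow in this design). The unthinned means were 13.2% and 21.2%. For Nr4a2 the thinned share was 1.35% ± 0.21 and 1.44% ± 0.38 (exact permutation test, p = 0.686), and for Nr4a3 it was 0.187% ± 0.107 and 0.334% ± 0.116 (exact permutation test, p = 0.0571). These 3 tests were not adjusted for one another. Free RNA was not measured, and the line holds no cell type that is known to lack Nr4a1.

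Depth also moved with the level. The cells of each library were split by depth into 3 equal parts. In the shallowest part Nr4a1 averaged 20.4 CPM at 37 °C and 40.6 at 39 °C, and in the deepest 11.5 and 26.8 CPM. In the shallowest part the libraries ran from 17.8 to 22.03 CPM at 37 °C and from 28.9 to 56.95 at 39 °C. In the middle part they ran from 10.7 to 20 and from 32.4 to 49.3 CPM, and in the deepest from 8.48 to 13.1 and from 22.5 to 32.1 CPM. The temperatures thus did not overlap in any part. Over all kept cells 56.7% of genes did not overlap, and the share within these parts was not worked out. The parts were cut within each library, so the same part was not of equal depth in all libraries.

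The share of cells with UMIs of Mki67, a marker of cycling cells, fell from 55.5% of kept cells at 37 °C to 5.99% at 39 °C, and NR4A levels were therefore compared between temperatures within each Mki67 class. The class with Mki67 UMIs was itself not alike at both: Mki67 in it ran from 379.4 to 439.2 CPM at 37 °C and from 217.4 to 305.2 at 39 °C. The class without Mki67 UMIs held 40.6% to 48.9% of cells per library at 37 °C and 92.6% to 94.6% at 39 °C. It can include cycling cells whose Mki67 was not captured, and their share at each temperature was not tested. Among cells without Mki67 UMIs, the mean Nr4a1 level was 19.1 ± 3.63 CPM at 37 °C against 33.1 ± 6.10 at 39 °C (SD, n = 4). It rose by 0.79 on the log2 scale (SE 0.12, edgeR adjusted p = 6.68e-06). The libraries ran from 15.3 to 23.4 CPM at 37 °C and from 28.7 to 41.9 at 39 °C and did not overlap, as for 52.0% of genes, and 29.7% of 15040 genes passed as higher. Among cells with Mki67 UMIs, Nr4a1 averaged 11.3 ± 2.12 and 22.5 ± 8.00 CPM and rose by 1.03 on the log2 scale (SE 0.18, adjusted p = 3.37e-05). Here the libraries ran from 8.65 to 13.6 CPM and from 14.02 to 31.7 CPM, again without overlap, which 35.5% of 14405 genes showed, and 15% passed as higher. Nr4a1 was therefore higher at 39 °C in both classes, and the log2 difference in each was smaller than the 1.18 found over all cells.

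Within a temperature, cells with Mki67 UMIs held less Nr4a1. At 37 °C the level in cells without Mki67 UMIs was 23.6, 17.2, 20.5 and 15.3 CPM, and in cells with them 12.3, 10.8, 13.6 and 8.76 CPM in the same libraries. Every library showed the lower value in cycling cells, and the log2 difference was -0.76 (SE 0.08, edgeR with the library as a block, adjusted p = 2.10e-16), where 15.3% of 14745 genes passed as lower. At 39 °C the levels were 32.4, 28.7, 29.2 and 41.8 CPM without and 13.9, 17.8, 26.2 and 31.5 CPM with Mki67 UMIs, the latter from 20 to 59 Nr4a1 UMIs per library. All 4 libraries again were lower, by -0.52 on the log2 scale (SE 0.11, adjusted p = 9.86e-05), where 14.9% of genes passed as lower. This call at 39 °C was lost without the library block (adjusted p = 0.0589) and with thinned cells (log2 difference -0.76, adjusted p = 0.0977).

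The difference between the Mki67 effects at the 2 temperatures was 0.24 for Nr4a1 (SE 0.15, adjusted p = 0.321), while 13.3% of genes passed this test. With classes set by UMIs of either Mki67 or Top2a, a topoisomerase of dividing cells, the difference was 0.54 (adjusted p = 9.18e-06), and with a mitochondrial limit of 10% it was 0.46 (adjusted p = 0.0232). The median depth of cells with Mki67 UMIs was higher than that of the others in each temperature (11448 to 17162 against 8296 to 13059 UMIs at 37 °C, and 8386 to 17890 against 6557 to 16586 at 39 °C), and the part of depth in the class effect was not tested beyond thinning.

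Nr4a2 showed no such split. At 37 °C its level was 2.78, 3.93, 3.93 and 4.37 CPM without and 3.87, 4.09, 3.63 and 3.57 CPM with Mki67 UMIs, with a log2 difference of 0.02 (SE 0.15, adjusted p = 0.943). At 39 °C the log2 difference was -0.06 (SE 0.27, adjusted p = 0.903), with 3 to 10 UMIs per library behind the levels of cycling cells. From 37 to 39 °C its log2 fold change was 0.27 (SE 0.17, adjusted p = 0.186) in cells without Mki67 UMIs and 0.17 (SE 0.28, adjusted p = 0.692) in cells with them.

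Nr4a3 was lower in cells with Mki67 UMIs. At 37 °C it had 35 UMIs in cells without Mki67 UMIs and 28 in the larger class with them, at 0.818 ± 0.269 and 0.405 ± 0.218 CPM (SD, n = 4), a log2 difference of -1.01 (SE 0.40, adjusted p = 0.0390). Without the library block this call had an adjusted p of 0.0564, and it was lost when any 1 library at 37 °C was left out. At 39 °C all 81 Nr4a3 UMIs were in cells without Mki67 UMIs, at 0.747, 0.821, 0.887 and 1.08 CPM, and none was found in the 587 cells with them, which allows a share of up to 0.511% of cells with a UMI and sets no limit on cells that express the gene. Pooled over the libraries, Nr4a3 stood at 0.898 CPM without Mki67 UMIs (95% limits 0.713 to 1.12), against an upper 95% limit of 0.521 CPM with them. These limits cover counting error only and leave out the spread between libraries. The fit gave an adjusted p of 0.00648 for a difference, and 0.549 with thinned cells. From 37 to 39 °C Nr4a3 had a log2 fold change of 0.12 (SE 0.29, adjusted p = 0.746) in cells without Mki67 UMIs.

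**Figure D2:**
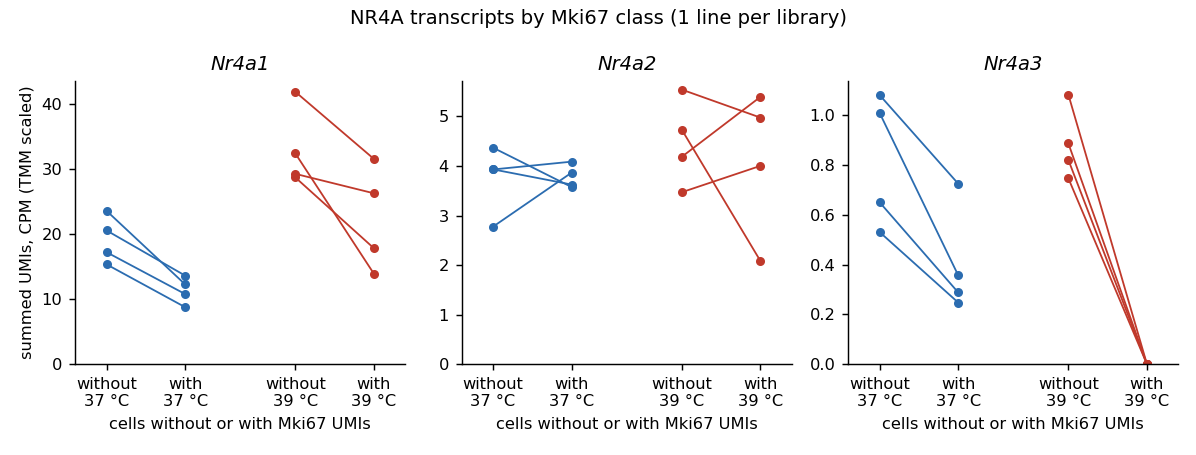
Level of each NR4A gene in CPM (vertical axis, starting at 0) in cells without and with Mki67 UMIs at 37 °C (blue) and 39 °C (red), with 1 line joining both classes of a library. All 8 lines fall for Nr4a1 and Nr4a3, the latter to 0 at 39 °C, and the lines of Nr4a2 cross.

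Fos and Egr1 encode immediate-early transcription factors that answer many of the signals that act on Nr4a1, and their UMIs per cell give a reading of that response in the same cells. Fos UMIs were found in 6.84% to 12.2% of cells per library at 37 °C and 14.7% to 21.7% at 39 °C. Egr1, the more abundant, was found in 53.8% to 62.1% and 58.0% to 70.8%.

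Nr4a1 was higher in cells with Egr1 UMIs at both temperatures and in every library. At 37 °C it stood at 5.95, 5.75, 6.62 and 5.46 CPM in cells without Egr1 UMIs and at 22.3, 17.9, 20.9 and 15.5 CPM in cells with them. The classes did not overlap, and the log2 difference was 1.68 (SE 0.09, edgeR adjusted p = 3.69e-29). At 39 °C Nr4a1 stood at 13.1, 11.3, 13.1 and 20.7 CPM without and at 37.7, 37.5, 39.0 and 50.6 CPM with Egr1 UMIs, a log2 difference of 1.51 (SE 0.07, adjusted p = 1.39e-34). Of 14745 genes, 5.75% passed as higher in cells with Egr1 UMIs at 37 °C and 3.00% at 39 °C. The study's limits were met by 0.0610% and 0.0543% of genes in these comparisons, Egr1 itself included, and Nr4a1 was among them at both. By p-value Nr4a1 ranked 12 of the 14744 other genes at 37 °C and 6 at 39 °C.

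The Egr1 effect on Nr4a1 did not pass a test of difference between temperatures (-0.17, SE 0.12, adjusted p = 0.720), where 1.51% of genes passed. Cells with Egr1 UMIs held 84.0% of the Nr4a1 UMIs at 37 °C and 84.5% at 39 °C, but 61.9% and 65.7% of all UMIs. The median depth of cells with Egr1 UMIs ran from 10343 to 16379 UMIs at 37 °C and 7150 to 17057 at 39 °C, against 9164 to 14196 and 5708 to 15912 in cells without. With each cell thinned to 3000 UMIs the log2 differences were 1.06 and 1.24, which still passed but were under the study's limit of 1.5. At 39 °C that limit was also missed without replicate 2 (1.44) or replicate 3 (1.49) at 39 °C and at a mitochondrial limit of 10% (1.46).

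A graded relation was seen when cells were thinned to 5000 UMIs and grouped by their number of Egr1 UMIs. At 37 °C the mean share of cells with a Nr4a1 UMI was 4.02% at 0 Egr1 UMIs, 7.77% at 1, 9.97% at 2, 13.2% at 3 to 4 and 14.8% ± 6.2 at 5 or more (SD, n = 4). At 39 °C the same shares were 7.58%, 11.8%, 16.9%, 20.2% and 25.1% ± 5.2. The mean share climbed at each step, and in each group of Egr1 UMIs it was higher at 39 °C. The group of 5 or more held only 37 to 66 cells per library at 37 °C, and in replicate 2 the share there was 8.11%, against 11.7% at 2 Egr1 UMIs, so the climb did not hold in every library. The Nr4a2 share stayed between 1.80% and 3.3% in all groups of both temperatures.

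**Figure D3:**
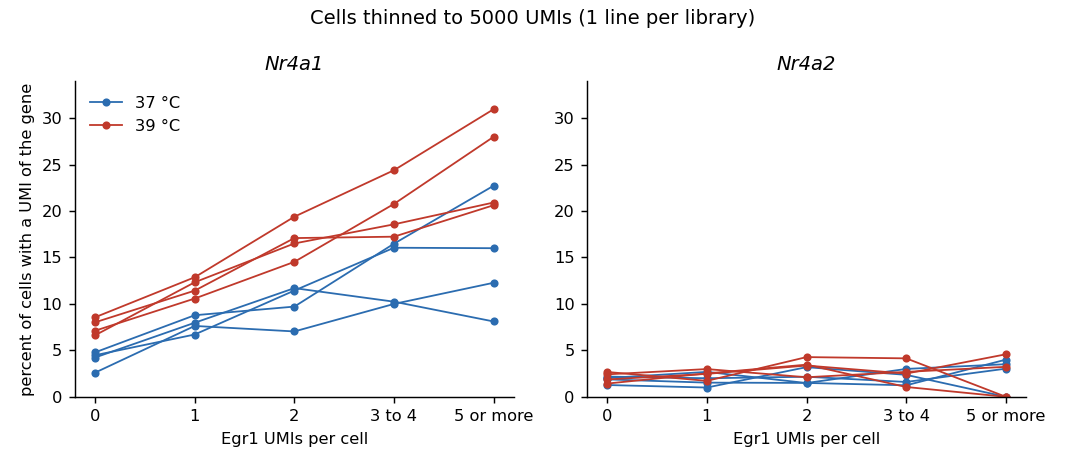
Percent of cells with a UMI of Nr4a1 (left) or Nr4a2 (right) on the vertical axis against the number of Egr1 UMIs in the cell, after thinning every cell to 5000 UMIs, with 1 line per library at 37 °C (blue) and 39 °C (red). The mean Nr4a1 share climbs from 4.02% to 14.8% at 37 °C and from 7.58% to 25.1% at 39 °C, and the Nr4a2 lines stay under 5%.

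The Fos classes differed less in Nr4a1 than the Egr1 classes. At 37 °C Nr4a1 stood at 15.9, 12.04, 14.6 and 11.2 CPM in cells without Fos UMIs and at 22.1, 24.6, 25.9 and 10.1 CPM in cells with them, so replicates 1 to 3 were higher in cells with Fos and replicate 4 was not. The log2 difference was 0.62 (SE 0.11, adjusted p = 5.06e-07), where 5.83% of genes passed as higher. At 39 °C Nr4a1 stood at 30.7, 26.4, 27.1 and 39.1 CPM without and 29.8, 33.2, 36.6 and 49.6 CPM with Fos UMIs, a log2 difference of 0.29 (SE 0.07, adjusted p = 0.000782) carried by replicates 2 to 4, where 3.96% of genes passed as higher. The call at 39 °C was lost without the library block (adjusted p = 0.369), with DESeq2 (adjusted p = 0.0854) and where cells needed at least 2 Fos UMIs (adjusted p = 0.0704). With thinned cells neither passed (adjusted p = 0.767 and 0.361). The Fos effect did not pass a test of difference between temperatures (-0.33, SE 0.12, adjusted p = 0.175), where 1.82% of genes passed.

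The cells were then sorted by both genes. In cells with neither, Nr4a1 averaged 5.99 ± 0.53 CPM at 37 °C and 14.3 ± 4.10 at 39 °C (SD, n = 4). In cells with Egr1 only it averaged 18.1 ± 2.73 and 41.1 ± 5.63 CPM, and in cells with both 22.8 ± 7.20 and 42.3 ± 9.41 CPM. Cells with Fos only were few (109 and 307), and their Nr4a1 level was 3.32 ± 3.97 and 18.3 ± 7.28 CPM, overlapping the libraries' range in cells with neither. With each cell thinned to 3000 UMIs the picture was less clear for Fos. Nr4a1 then averaged 10.7 ± 2.57 CPM with neither, 22.7 ± 4.40 with Egr1 only and 23.8 ± 12.5 with Fos only at 37 °C, the last from 6 Nr4a1 UMIs in 99 cells. At 39 °C it averaged 21.1 ± 7.20, 52.8 ± 8.88 and 37.4 ± 18.9 CPM, the last from 22 UMIs in 218 cells. The higher level with Egr1 held in both versions, whereas the low level with Fos only did not. None of these differences was tested.

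**Figure D4:**
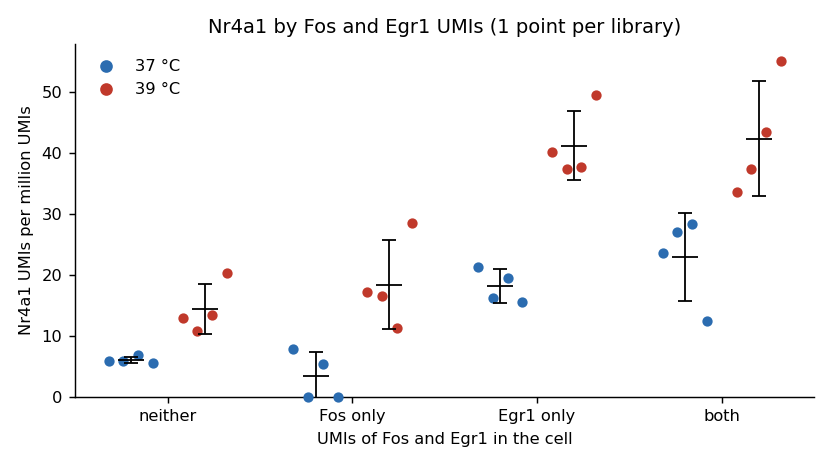
Nr4a1 UMIs per 1000000 UMIs (vertical axis, starting at 0) in cells with UMIs of neither Fos nor Egr1, of Fos only, of Egr1 only or of both, at 37 °C (blue) and 39 °C (red). Points are libraries and bars the mean ± SD of 4; the Egr1 only and both columns (18.1 and 22.8 at 37 °C, 41.1 and 42.3 at 39 °C) lie above the other columns of their temperature.

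The temperature difference of Nr4a1 was found within each Fos and Egr1 class as well, in fits added after the data were seen. The log2 fold change from 37 to 39 °C was 1.28 (SE 0.15) in cells without Egr1 UMIs, 1.10 (SE 0.10) in cells with them, 1.20 (SE 0.11) in cells without Fos UMIs and 0.83 (SE 0.16) in cells with them, and each passed with an adjusted p of 5.58e-05 or less. Of all genes, 28.6%, 30.3%, 31.6% and 23.1% passed as higher at 39 °C in these fits.

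Nr4a2 followed Egr1 at 39 °C and not detectably at 37 °C. In the unthinned sums at 39 °C Nr4a2 stood at 3.07, 3.29, 2.74 and 4.39 CPM in cells without Egr1 UMIs and at 5.07, 4.82, 4.00 and 6.02 CPM in cells with them, higher in 4 of 4 libraries. The log2 difference was 0.55 (SE 0.15, edgeR adjusted p = 0.0151). At 37 °C it was 3.62 ± 0.27 and 3.77 ± 0.28 CPM (SD, n = 4), a log2 difference of 0.06 (SE 0.14, adjusted p = 0.902). The difference between these effects did not pass (0.49, SE 0.21, adjusted p = 0.355). The call at 39 °C did not survive when any 1 library at 39 °C was left out (adjusted p from 0.0526 to 0.0817), when the block was dropped (adjusted p = 0.149) or when cells were thinned (adjusted p = 0.115). In cells with Egr1 UMIs Nr4a2 rose from 37 to 39 °C by 0.41 on the log2 scale (SE 0.13, adjusted p = 0.0127), and in cells without them its log2 fold change was -0.13 (SE 0.18, adjusted p = 0.575). In the Fos classes the log2 difference of Nr4a2 was -0.31 (SE 0.25) at 37 °C and -0.22 (SE 0.19) at 39 °C, and neither passed.

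Nr4a3 did not pass in any Fos or Egr1 class comparison. In cells with Egr1 UMIs it had 47 UMIs at 37 °C and 62 at 39 °C, at 0.672 ± 0.250 and 0.965 ± 0.132 CPM, and in cells without them 16 and 19 UMIs, at 0.396 ± 0.318 and 0.491 ± 0.371 CPM (SD, n = 4). The log2 differences were 0.80 (SE 0.46, adjusted p = 0.340) and 0.79 (SE 0.42, adjusted p = 0.365). Fits between temperatures within the Fos classes were added after the data were seen. In cells without Fos UMIs Nr4a3 had 51 UMIs at 37 °C and 70 at 39 °C and passed as higher at 39 °C, as did 31.6% of genes. Its log2 fold change there was 0.80 (SE 0.28, edgeR adjusted p = 0.0169). The libraries overlapped, since without TMM scaling replicate 3 at 37 °C stood at 0.728 CPM and replicate 1 at 39 °C at 0.694. In cells with Fos UMIs Nr4a3 had 12 and 11 UMIs and a log2 fold change of -0.77 (SE 0.71, adjusted p = 0.399).

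The members were also found together in cells. Among cells thinned to 3000 UMIs, Nr4a2 was detected in 11 of 325 cells with a Nr4a1 UMI at 37 °C (3.38%) and in 103 of 8010 without (1.29%), and in 40 of 797 (5.02%) and 102 of 8425 (1.21%) at 39 °C. The share was higher among Nr4a1-positive cells in 4 of 4 libraries at each temperature. Nr4a3 was found with Nr4a1 in 2 cells at 37 °C and 6 at 39 °C, too few to compare. These are shares of cells that share libraries, and no test was made.

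Within libraries the gene most like Nr4a1 over 17557 thinned cells, of 5973 genes with a UMI in at least 5% of cells, was Egr1, with a mean Pearson correlation of 0.111 over 8 libraries (range 0.039 to 0.201). It was followed by Ier2 (0.0964) and Junb (0.0909), both immediate-early, by Areg (0.0778), which encodes an EGF receptor ligand, and by Id1 (0.0777), an inhibitor of basic helix-loop-helix factors. All 5 were above 0 in all 8 libraries, but these are weak correlations in sparse counts, given as a description. The 5 genes most like Nr4a2 were Anxa5, Twist1, Rbmxl1, Mcm3 and Nrn1 (0.0346 to 0.0431), and those most like Nr4a3 were Anxa5, D3Ertd254e, Zfp292, Id3 and Larp1b (0.0339 to 0.0426). The correlation of Nr4a1 with Nr4a2 was 0.0777 and was above 0 in all 8 libraries.

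Nr4a1 changed in the company of most other immediate-early genes. Of 43 such genes tested, 31 rose, 7 fell and 5 did not pass, with a median log2 fold change of 0.59 against 0.02 over all tested genes, of which 31.5% rose and 30.5% fell. Maff, a small Maf factor, rose from 7.77 to 21.7 CPM (log2 1.49, SE 0.07), Fosl1, an AP-1 subunit, from 23.9 to 58.6 CPM (1.30, SE 0.07), and Btg1, an antiproliferative gene, from 110.0 to 290.0 CPM (1.40, SE 0.06). Klf2 went the other way, from 10.1 to 3.08 CPM, a log2 change of -1.70 (SE 0.11). The 1.18 of Nr4a1 lay between the median of the list and its highest member, Maff. Of the 26 genes listed for cAMP, CREB, MEF2 and SRF input into the family's promoters, 16 rose and 4 fell, with a median of 0.20. The list mixes genes that promote this input with genes that oppose it, such as cAMP-degrading Pde4b, so the counts give it no direction. Nfatc1 (0.74, SE 0.07) and Nfatc4 (0.61, SE 0.08), calcium-driven factors, rose, and Mef2c (-1.28, SE 0.11) and Srf itself (-0.59, SE 0.07) fell.

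Among partners and coregulators of the NR4A proteins, 9 of 19 tested genes rose and 4 fell, against 31.5% and 30.5% of all genes, with a median log2 fold change of 0.05. Rxra, the retinoid X receptor that pairs with Nur77 and Nurr1, rose from 21.8 to 35.8 CPM (log2 0.72, SE 0.05). Parp1, a DNA repair enzyme, fell from 111.5 to 54.2 CPM (-1.04, SE 0.06).

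Among other nuclear receptors, 16 of 31 tested rose, 4 fell and 11 did not pass, against 31.5% of all genes that rose and 30.5% that fell, with a median of 0.36. Ranked with these, Nr4a1 was 6 of 34 by log2 fold change, next to Thrb (1.48, SE 0.07), a thyroid hormone receptor, above it and Nr1d1 (1.10, SE 0.06) and Thra (1.05, SE 0.05), a clock repressor and another thyroid hormone receptor, below it. The intervals of 1 SE around Nr4a1 overlap those of Nr1d1, of Thra and of the higher-ranked Nr5a1 (1.61, SE 0.88), so its order among them is not set by these data. Nr4a3 ranked 16 and Nr4a2 19. Pparg fell from 16.4 to 7.53 CPM (-1.13, SE 0.09). At 39 °C the level of Nr4a1, 32.0 CPM, was near those of Thrb (30.6) and Rxra (35.8), and Thra was more abundant at 207.8 CPM, all as UMIs, which count molecules and are not scaled by length.

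**Figure D5:**
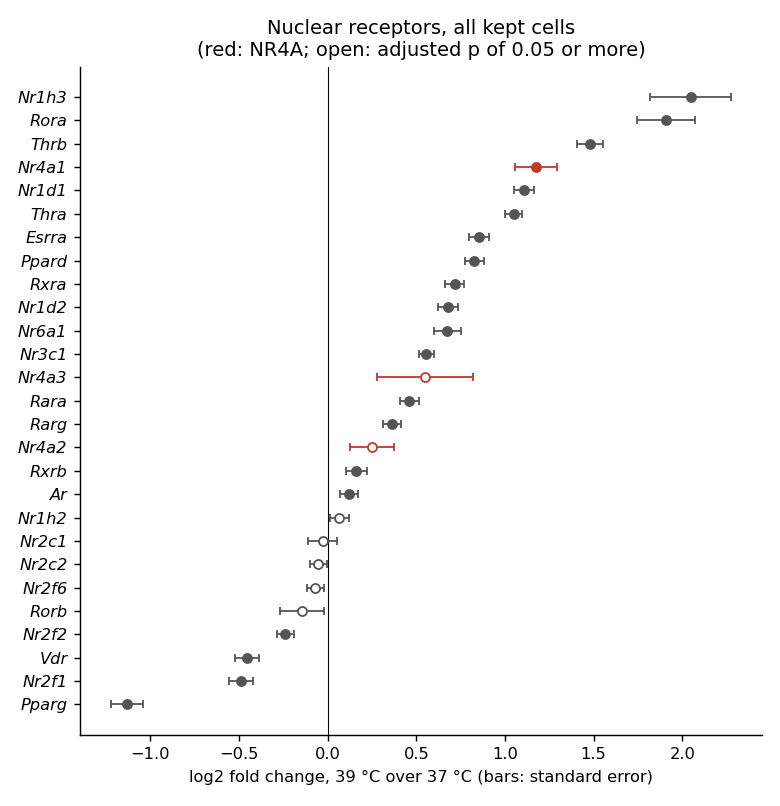
Log2 fold change from 37 to 39 °C (horizontal axis) with its standard error for the NR4A genes (red) and the other nuclear receptors with at least 1 CPM at either temperature (grey), where open points had an adjusted p of 0.05 or more. Nr4a1 at 1.18 lies just above Nr1d1 and Thra, and Nr4a2 and Nr4a3 are open.

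The dopaminergic genes linked to Nr4a2 were mostly not detected. Th, the rate-limiting enzyme of dopamine synthesis, had 3 UMIs at 37 °C and 4 at 39 °C, Slc6a3, the dopamine transporter, 1 and 1, Pitx3 2 and 2, and Lmx1b 4 and 4. Nr4a2 itself, with 415 and 432 UMIs, was therefore present where these genes were at no more than 4 UMIs each in all cells of a temperature. Of 25 listed genes 13 had enough UMIs to be tested, of which 2 rose and 4 fell, with a median of -0.01. Msx1 (-0.27, SE 0.08) and Foxa2 (-0.16, SE 0.06, adjusted p = 0.0391), a floor plate factor at 14.2 and 12.8 CPM, fell, the latter with its call lost in 8 of 18 alternatives (adjusted p up to 0.125), and Aldh1a1 had a log2 fold change of 0.07 (SE 0.46, adjusted p = 0.904).

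Heat shock genes were read because the non-permissive condition is warmer. Of 23 tested, 3 rose and 15 fell, with a median of -0.25, and for these and the following lists the shares of all genes were 31.5% and 30.5%. Hspd1, a mitochondrial chaperonin, changed by -1.24 (SE 0.05), Hsph1 by -0.61 (SE 0.05), Hspa5 by -0.60 (SE 0.05) and Dnaja1 by -0.55 (SE 0.05) on the log2 scale. Of the lists for cell types, 5 of 7 neural progenitor genes tested rose and 1 fell, led by Nes (-2.11, SE 0.07) and Notch1 (1.09, SE 0.06), with Hes1 (0.71, SE 0.14) and Msi2 (0.49, SE 0.06). Of 9 pan-neuronal genes none rose and 5 fell, among them Stmn2 (-1.07, SE 0.10), Tubb3 (-0.87, SE 0.09), Map2 (-0.79, SE 0.05) and Ncam1 (-0.26, SE 0.04). Of 15 mesenchymal genes 2 rose and 10 fell, led by Col3a1 (-3.48, SE 0.15), Tagln (-3.26, SE 0.13), Acta2 (-3.14, SE 0.11) and Col1a2 (-1.90, SE 0.05). Of 6 glial genes 1 rose and 1 fell (Slc1a3, -0.28, SE 0.10, a call lost in 3 of 18 alternatives, with an adjusted p up to 0.534), and of 7 microglial genes 1 rose and 2 fell, led by Tmem119 (-2.23, SE 0.09). Slc1a3 is expressed in many cell types.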

How the data were processed

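Single-cell libraries of SN4741 cells, 4 at each temperature, were made with Chromium Single Cell 3′ V3 reagents. The authors' files hold raw UMI counts per gene and cell barcode, deposited as made with Cell Ranger 3.0.1 on mm10 per the labels. Per the methods, counting and pooling across samples used its count and aggr steps without normalization; alignment settings are not given in the sources used here. Cells with over 15% mitochondrial UMIs, under 200 or over 6000 genes were left out, as in the study's methods, which treat the upper limit as the removal of doublets; no doublet caller was run. Counts were summed per library, or per library and class of cells with and without a UMI of Mki67, Fos or Egr1. Sums were tested with edgeR 4.0.16 (TMM factors, quasi-likelihood) in R 4.3.3 on genes whose mean over the sums was 1 count or more, with Benjamini-Hochberg adjustment over all genes tested. Comparisons between temperatures used 8 sums without a block. Class comparisons used 16 sums with the library as a block, since both classes come from the same cells' library. "Passed" means an adjusted p under 0.05. Shares were compared after thinning by exact permutation over 70 assignments. Named genes are the members, Mki67, Fos and Egr1, up to 4 genes per list with the largest change among those that passed at 5 CPM or more, the dopaminergic genes the study names, and the 5 genes most like each member. Some genes picked by it are not reported here but stay in the counts over lists. The members and lists were chosen with earlier results of these data known. Scripts were tested on simulated data. Sequences are from RefSeq (GRCm38.p6), and positions from GENCODE M21. Alternatives were other scalings and filters, DESeq2 1.42.0, left-out libraries, other cell filters, thinning, other classes, and a replicate block. Replicate numbers did not pair libraries across temperatures: correlations of same-numbered deviations ran from -0.034 to 0.050.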

Additional observations from a re-analysis of the deposited data

Results flagged for a closer look

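Of 48 groups of 4 libraries examined for a library far from the others, 4 were marked, where chance marks about 1 group in 20. Nr4a1 in cells with Egr1 UMIs stood at 50.6 CPM in replicate 4 at 39 °C, the library with the shallowest cells, against 37.5 to 39.0 CPM in the others. Nr4a3 in cells without Fos UMIs stood at 0.674 CPM in replicate 1 at 39 °C, against 0.923 to 0.954 CPM. The thinned share of cells with a Nr4a3 UMI was 0.347% in replicate 3 at 37 °C, against 0.123% to 0.152%, and 0.162% in replicate 3 at 39 °C, against 0.377% to 0.414%.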

How the results depend on the processing

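Over 39 results on the NR4A genes and 708 values under alternatives, 636 kept their direction and their side of the threshold, 25 lost the call, 10 gained one and 37 changed sign. The higher level of Nr4a1 at 39 °C in all kept cells kept its call in all 22 alternatives (log2 fold change 0.83 to 1.28). Same-numbered libraries were not paired. With the replicate block the log2 fold changes were 1.18 for Nr4a1, 0.24 for Nr4a2 and 0.55 for Nr4a3, and no call on them changed. All values below are log2 differences, with those of left-out libraries as ranges, and unless a construction is named the cause was not tested. Between temperatures, Nr4a3 gained a call without the cell filter (0.56), without the upper limit on genes (0.59) and in cells without Fos UMIs (0.80), and had -0.77 in cells with them. Nr4a2 gained one in cells with Egr1 UMIs (0.41) and had -0.13 in cells without them; left-out libraries gave 0.11 to 0.36 for Nr4a2 and 0.39 to 0.80 for Nr4a3. In cells without Mki67 UMIs Nr4a3 had -0.0363 at a mitochondrial limit of 10%, and -0.0214 to 0.27 with libraries left out. Dropping the block from the class fits ended the calls of Nr4a1 by Mki67 at 39 °C (-0.53), Nr4a3 by Mki67 at 37 °C (-0.997), Nr4a1 by Fos at 39 °C (0.28) and Nr4a2 by Egr1 at 39 °C (0.57). DESeq2 ended those of Nr4a3 by Mki67 at 37 °C (-1.08) and Nr4a1 by Fos at 39 °C (0.31), and testing without a low-count filter ended the former (-1.01). Thinning, which discards most UMIs, ended the calls by Mki67 of Nr4a1 at 39 °C (-0.76) and Nr4a3 at 37 °C (-0.28) and 39 °C (-4.98), by Fos of Nr4a1 (0.41 and 0.48) and by Egr1 of Nr4a2 at 39 °C (0.71). It turned the sign of uncalled effects of Nr4a2 by Mki67 at 39 °C (0.63), Nr4a2 by Fos at 37 °C (0.0444) and Nr4a3 by Egr1 at 37 °C (-0.17), and of differences between temperatures for Nr4a1 by Fos (0.0663), Nr4a1 by Egr1 (0.18), Nr4a2 by Mki67 (0.36), Nr4a2 by Fos (-0.29) and Nr4a3 by Egr1 (1.75). The mitochondrial limit of 10% ended the calls of Nr4a3 by Mki67 at 37 °C (-0.78) and Nr4a2 by Egr1 at 39 °C (0.50), gave one to the Mki67 difference of Nr4a1 (0.46), and turned Nr4a2 by Mki67 at 39 °C (0.15) and its difference (0.0892), Nr4a2 by Egr1 at 37 °C (-0.0156) and the differences of Nr4a2 by Fos (-0.0421) and Nr4a3 by Egr1 (0.19). Classes by Mki67 or Top2a gave 0.54 for the Mki67 difference of Nr4a1, now called, and -0.49 for Nr4a3 at 37 °C, no longer called. At least 2 UMIs for a class gave Nr4a1 by Fos at 39 °C 0.32, no longer called, Nr4a2 by Fos at 39 °C -1.23, now called, and differences of -0.73 for Nr4a2 by Fos and 0.25 for Nr4a3 by Egr1. Without the cell filter and without the upper limit on genes, the differences were -0.0840 and -0.0742 for Nr4a2 by Fos and 0.0203 and 0.0463 for Nr4a3 by Egr1. RLE scaling gave -0.0012 and library totals -0.0233 for Nr4a2 by Mki67 at 37 °C, and totals 0.0106 for its difference. With 1 library left out, the ranges were -0.12 to 0.13 for Nr4a2 by Mki67 at 37 °C, -0.23 to 0.12 at 39 °C and -0.25 to 0.12 for its difference, -1.27 to -0.83 for Nr4a3 by Mki67 at 37 °C, -0.0338 to 0.25 for the difference of Nr4a2 by Fos, 0.51 to 0.59 for Nr4a2 by Egr1 at 39 °C and -0.51 to 0.54 for the difference of Nr4a3 by Egr1. The share of cells with Nr4a2 differed by -0.342 percentage points without thinning and by -0.0513 to 0.222 with libraries left out; that of Nr4a3 by 0.189 without the cell filter, now at the smallest p. Aldh1a1 changed sign, with -0.83 in thinned cells and -0.93 to 0.41 with libraries left out. Of 227 counts of genes that passed, 34 moved by over 1.5 times. Some alternatives gave no value: for Nr4a3 in the Mki67, Fos or Egr1 classes under filterByExpr, DESeq2 or thinning, and for Nr4a2 under DESeq2 by Egr1 at 37 °C and by Fos at 39 °C. Depth limits Nr4a3, with 63 and 81 UMIs, most.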
